A study of Homo sapiens with 4 samples.

Results

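The long arm of chromosome 1 (1q) was examined in MCF10A cells through the regions enriched for 53BP1 and for 2 phosphorylated forms of RNA polymerase II (Pol II). Members were all listed regions on chromosome 1 that start at position 142600000 or beyond in hg19, leaving out starts from 152000000 to 154000000. They numbered 5401 of the 128738 rows of the series. Of these, 598 of 11605 were 53BP1 regions, 2603 of 62532 were regions of Pol II phosphorylated on serine 5 (S5p), and 2200 of 54601 were regions of Pol II phosphorylated on serine 2 (S2p). The short arm of the same chromosome (1p, starts below 121500000) served for comparison, with 696, 3671 and 3231 regions. Membership rests on position alone, so none of the measured values was used to choose the regions.

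Pol II is phosphorylated on serine 5 of its C-terminal repeats while it starts transcription and pauses near the promoter, and on serine 2 as it moves through the gene body. 53BP1 binds the tumour suppressor p53 and is best known for gathering on chromatin around DNA double-strand breaks, where it steers repair. Chromosome arms differ in gene density and, in cultured cell lines, in copy number. Gains of 1q and of parts of chromosomes 5 and 8 are known from sublines of MCF10A, and copy number was not measured here.

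MCF10A is an untransformed human breast epithelial line, and it was grown under normal conditions with no treatment, so all samples share 1 genotype and 1 state. The series has 4 samples, namely the ChIPs for 53BP1, S5p and S2p and an input that was not analysed here. Each ChIP had 1 library, so the arms were set side by side with no replicate error and no test between them. Intervals given below are exact 95% intervals with regions taken as independent, and they cover counting error only.

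In the full lists, both arms carried 53BP1 regions at nearly the same density, and 1q carried fewer Pol II regions per Mb than 1p. The 53BP1 density was 5.72 regions per Mb on 1q and 5.73 on 1p. For S5p it was 24.9 per Mb on 1q and 30.2 on 1p, and for S2p 21.0 and 26.6. S5p regions covered 5.60% of 1q and 6.59% of 1p, S2p regions 6.57% and 7.83%, and 53BP1 regions 0.426% and 0.369%. The median 53BP1 region was 644 bp wide on 1q and 542.5 bp on 1p, and 1q had the highest median of the 24 units compared (both arms of chromosome 1, the other autosomes and X). Width depends on depth, and the part of local depth in this order was not tested. S5p regions had median widths of 980.0 bp on 1q and 986 bp on 1p, and S2p regions 1166.5 and 1080 bp.

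Regions of all lists were unevenly spread over the arm, and the windows most crowded with 53BP1 lay on both sides of the left-out stretch. The most crowded 1 Mb window in every list was 155000001 to 156000000, with 39 53BP1, 74 S5p and 85 S2p regions. Next for 53BP1 was 156000001 to 157000000, with 29, 70 and 61 regions. Farther out, 247000001 to 248000000 ranked among the 5 most crowded windows for both Pol II forms with 64 S5p and 65 S2p regions, while it held 7 53BP1 regions. The window from 224000001 to 225000000 likewise had 65 S5p and 49 S2p regions beside 7 of 53BP1. In 10 Mb windows, the number of 53BP1 regions ran from 15 at 190000001 to 200000000 up to 149 at 150000001 to 160000000, although the left-out stretch lies in the latter. The most S5p regions, 453, lay at 200000001 to 210000000, where 96 53BP1 regions lay.

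**Figure D1:**
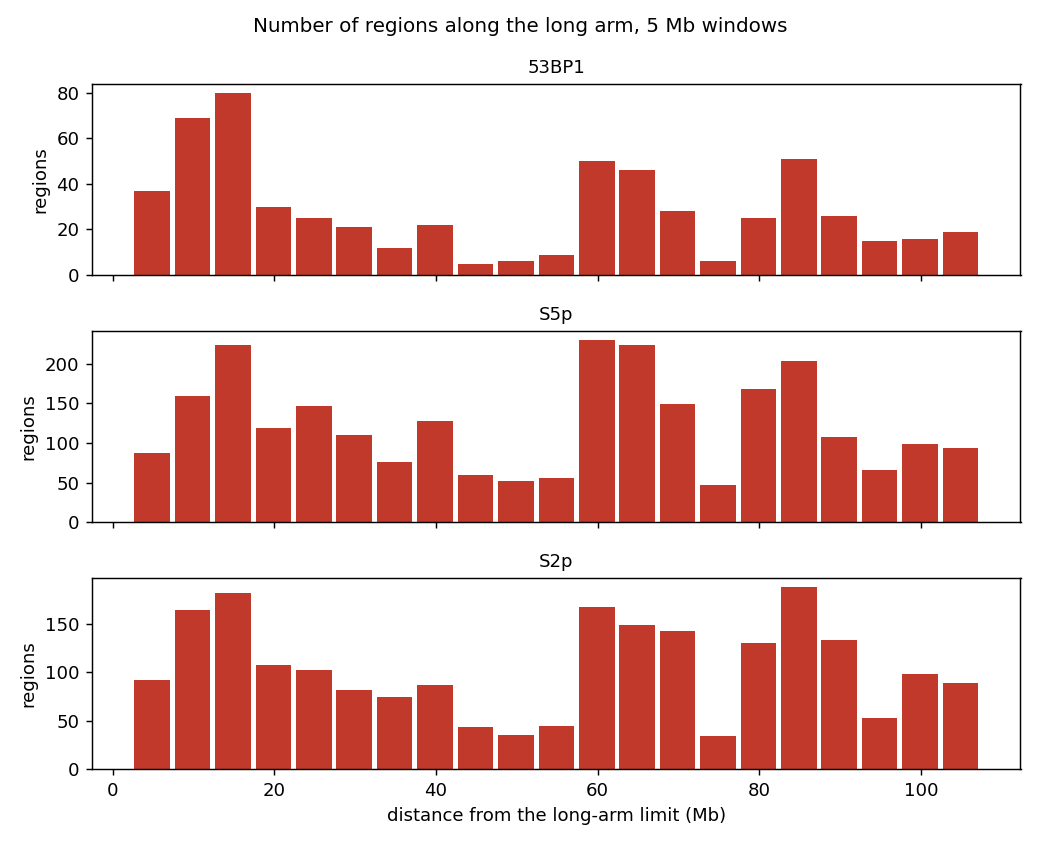
Number of 53BP1, S5p and S2p regions (vertical axes) in 5 Mb windows along 1q, placed by distance in Mb from the arm's limit at 142600000. Bars are counts from 1 library per ChIP. 53BP1 peaks at 80 regions and falls to 5, in a window with 59 S5p and 44 S2p regions. The lowest Pol II counts, 47 S5p and 34 S2p regions, lie in another window.

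The longest stretches with no region of any list lay close together. They ran from 189627972 to 192776462 (3.15 Mb), from 186798521 to 189627543 (2.83 Mb) and from 193292003 to 195927247 (2.64 Mb). The next longest, 1.43 and 1.39 Mb, began at 238812085 and 147807807. Next to the centromere the first region of any list began at 145396740, which is 2.80 Mb beyond the arm's limit. Of the 96 windows of 1 Mb on 1q with any region, 89 held 53BP1 and 7 did not, and on 1p 14 of 113 did not.

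The deposited fold and p-value of each region together gave the background behind it, and this background was higher on 1q than on any other unit in all 3 lists. The deposited values follow the relation fold = (ChIP level + 1)/(background + 1), with the p-value being the Poisson probability of a larger ChIP level given that background. Solving both for the 11604, 62530 and 54600 regions kept returned ChIP levels that were whole multiples of 1 step per list, within 0.02 of a step, in 99.7% of 53BP1 regions and 100% of S5p and S2p regions with levels below 200. With a slightly larger step, tried on a part of each list, 0.120%, 3.91% and 4.86% were whole. Levels below are therefore in scaled fragments at the summit. What the background was taken from (an input, or the ChIP's own surroundings) is not given in the sources used here.

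The median background of 53BP1 regions was 4.02 fragments on 1q (3.88 to 4.16) and 2.13 on 1p (2.04 to 2.17), a ratio of 1.88. S5p regions had medians of 10.0 on 1q (9.87 to 10.0) and 5 on 1p, a ratio of 2. S2p regions had medians of 10.2 (10.0 to 10.4) and 5.08 (5.00 to 5.19), a ratio of 2.01. The interquartile ranges of the arms did not overlap in any list. They were 3.45 to 4.79 against 1.76 to 2.58 for 53BP1, 8.22 to 12 against 4.15 to 6 for S5p, and 8.60 to 12.1 against 4.32 to 6.44 for S2p. Chromosome 5 came next after 1q in every list, with medians of 2.63, 6.22 and 6.44, and chromosome 8 followed for S5p (6) and S2p (6.36). For 53BP1 the median of chromosome 8 was 2.12, near the 2.13 of 1p. The lowest medians were those of X, at 1.65, 4.22 and 4.39.

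Most 1q regions stood above the usual background of their list. A background of at least 1.5 times the list median was found for 493 of 598 53BP1 regions on 1q (82.4%, 79.2 to 85.4), 9.77% of those on 1p and 13.4% of the whole list. It was found for 2175 of 2603 S5p regions (83.6%, 82.1 to 85.0), against 12.1% on 1p and 16.2% in the list. For S2p it was 1829 of 2200 (83.1%, 81.5 to 84.7), against 12.8% on 1p and 16.5% in the list. Each list also has a lowest background that no region goes below, at 1.65, 3.47 and 3.74 fragments. At this floor lay 2, 12 and 12 regions of 1q, and 106, 352 and 368 of 1p.

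The step between the arms appeared across the centromere and persisted to the end of 1q. The 100 53BP1 regions nearest the centromere had a median background of 2.17 on the 1p side and 3.97 on the 1q side. They spanned 93810966 to 121261475 on 1p and 145438038 to 154944266 on 1q, without the left-out stretch. No compared region of any list lay between 121261655 and 145396740, so the step is not placed more closely than that. For S5p the values were 5 and 10, and for S2p 5.00 and 10. In 10 Mb windows with at least 20 regions, the 53BP1 background ran from 3.62 to 4.35 on 1q and from 1.86 to 2.26 on 1p. S5p ran from 7.03 to 10.5 against 4 to 5.27, and S2p from 8.75 to 11 against 4.55 to 5.34, so the arms did not overlap in any list. The lowest 1q value for S5p was at 190000001 to 200000000, which holds part of the longest empty stretches. The stretch left out of the arm by position had medians of 4.0, 11.2 and 11.4 fragments over 46, 69 and 52 regions.

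**Figure D2:**
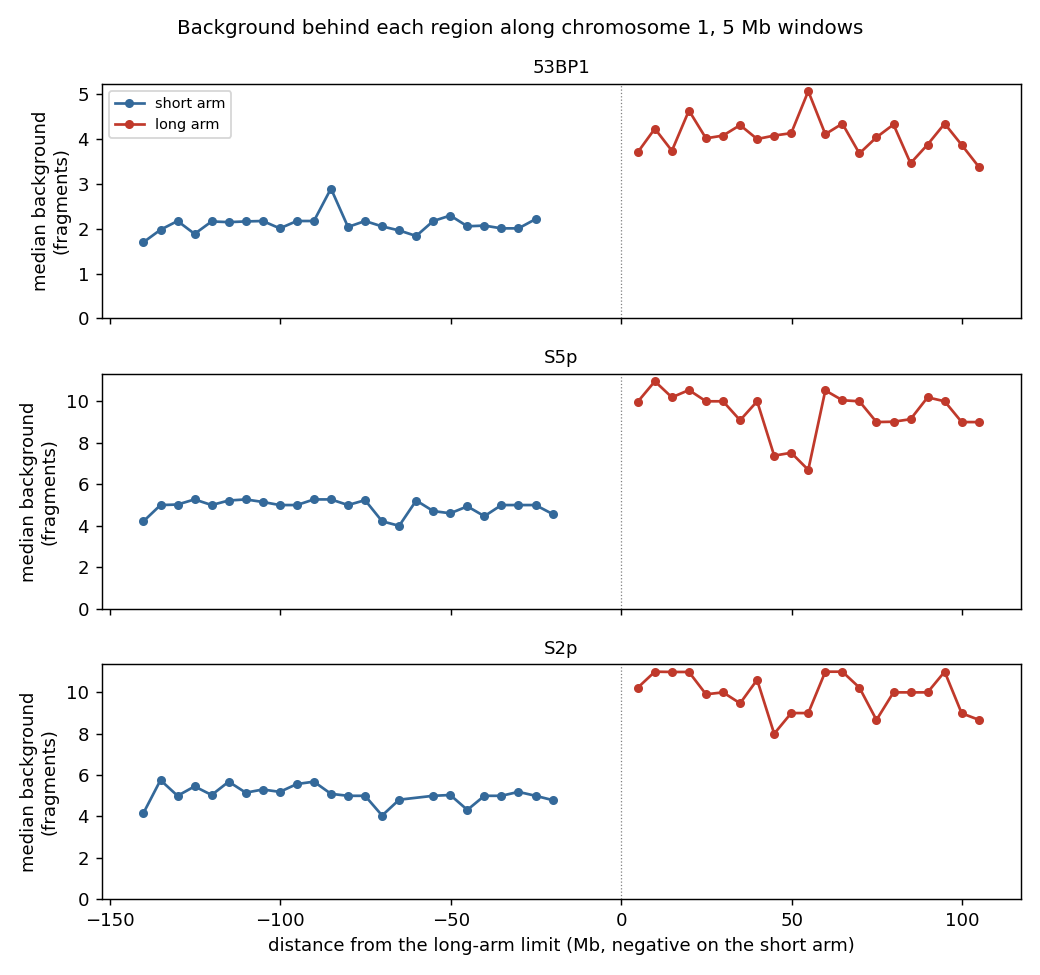
Median background in scaled fragments (vertical axes) of 53BP1, S5p and S2p regions in 5 Mb windows, by distance in Mb from the 1q limit (negative on 1p). Each point is 1 window and windows of few regions are not drawn; every 1q point lies above every 1p point, and S5p dips on 1q to 6.69.

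ChIP levels at the summits of listed regions were also higher on 1q. The lowest listed −log10 q-values were 1.32, 1.30 and 1.31 for 53BP1, S5p and S2p. Over a higher background a region needs more fragments to be listed, so these levels are not separate from the background. The median level was 31 fragments on 1q and 19.0 on 1p for 53BP1, 33.7 and 22.5 for S5p, and 34.0 and 21.7 for S2p. By the relation of fold to ChIP level and background, regions of equal fold rest on more fragments where the background is higher, as on 1q. At a 53BP1 fold of 6 to 7, the 70 regions of 1q had a median ChIP level of 32.0 and a median −log10 p-value of 18.4, and the 88 of 1p had 19 and 12.6. S5p regions with folds of 10 to 12 had medians of 127 fragments and 87.9 on 1q (30 regions), and of 65.5 and 47.6 on 1p (68 regions). S2p regions with folds of 5 to 6 had medians of 62.9 fragments and 27.6 on 1q (106 regions), and of 31.2 and 15.2 on 1p (205 regions).

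Over all folds, each list was divided into 100 bins of equal number by fold, and regions were ranked by −log10 p-value within their bin. The background was solved from fold and p-value, so at equal fold this rank restates the background and adds no separate result. The median percentile on 1q was 93.5 for 53BP1, 94.1 for S5p and 94.4 for S2p. On 1p it was 47.0, 47.8 and 47.4. After 1q, the next highest units were chromosome 5 for 53BP1 (67.7) and S5p (69.1) and chromosome 8 for S2p (67.9). Among 10 Mb windows of 1q the lowest median rank was 91.8 for 53BP1, 80.5 for S5p and 88.1 for S2p. Both Pol II minima were at 190000001 to 200000000. No 1p window exceeded 60.8, 53 and 53.6.

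**Figure D3:**
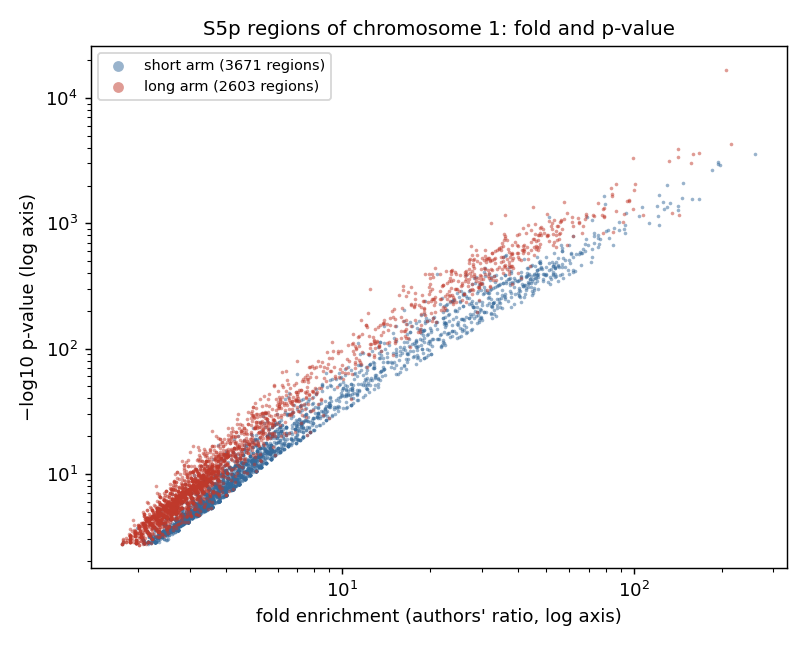
Fold enrichment (the authors' ratio, log axis) against −log10 p-value (log axis) for the 2603 S5p regions of 1q and the 3671 of 1p, 1 point per region. At a given fold the 1q points lie higher: between folds of 10 and 12 the medians were 87.9 on 1q and 47.6 on 1p. The background was solved from these values, so this shift restates the difference in background.

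By fold, Pol II regions of 1q had lower median ranks than those of 1p, while the intervals of the 53BP1 medians overlapped; these orders changed with the ranking measure. The median S5p region of 1q stood at percentile 34.2 of the list (32.4 to 36.3) and that of 1p at 51.8 (50.4 to 53.5). For S2p the medians were 35.4 (33.0 to 39.1) and 50.01 (48.0 to 50.9). Both 1q values were the lowest of the 24 units. For 53BP1 the medians were 51.8 on 1q (46.7 to 55.3) and 48.9 on 1p (45.9 to 53.9). Ranked by −log10 q-value, the 1q medians were 67.9, 54.2 and 58.8 for 53BP1, S5p and S2p, all above the 1p medians of 49.1, 51.0 and 49.4. Ranked by ChIP level over background, without the added 1, they were 39.1 (34.4 to 43.2), 28.0 and 30.5, all below the 1p medians of 50.0, 51.8 and 49.9.

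Ranked by fold, 1q had more of its regions at the bottom of each list than 1p, and ranked by −log10 q-value it had fewer. With the list divided by fold into 5 equal parts (quintiles), the weakest quintile took 945 of 2603 S5p regions of 1q (36.3%), 783 of 2200 S2p regions (35.6%) and 167 of 598 53BP1 regions (27.9%). On 1p it took 19.2%, 19.7% and 19.1%. Over a higher background, regions of lower fold can reach the same q-value, so these shares are not separate from the background. For S5p the 10th percentile of the fold was 2.23 on 1q and 2.55 on 1p. How far the background sets these shares was not tested. By −log10 q-value the weakest quintile took 16.7% of S5p, 16.9% of S2p and 17.4% of 53BP1 regions of 1q, against 20.8%, 21.3% and 20.3% on 1p. The strongest then took 22.4%, 26.2% and 37.5% on 1q, against 19.8%, 19.2% and 19.3%. By fold the strongest quintile took 18.6% of S5p, 18.3% of S2p and 21.6% of 53BP1 regions of 1q, close to the 20.1%, 19.9% and 20.3% of 1p. Per Mb and by fold, 1q had 9.03 S5p regions in the weakest quintile and 1p had 5.79. In the third quintile the densities were 3.23 and 5.91, and in the strongest 4.64 and 6.08.

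**Figure D4:**
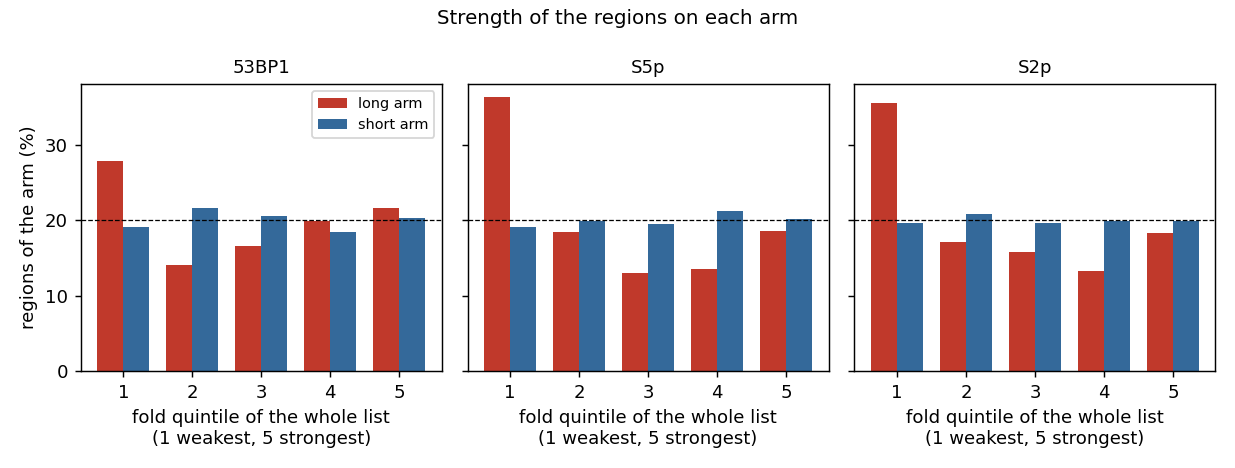
Percentage of the regions of 1q and 1p (vertical axis) in each fold quintile of the whole list, for 53BP1, S5p and S2p; the dashed line marks the 20% of an even spread. On 1q the weakest quintile holds 27.9%, 36.3% and 35.6%, and all 1p bars lie near the line; ranked by −log10 q-value the weakest quintile holds 17.4%, 16.7% and 16.9% of 1q.

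Nearly all 53BP1 regions of 1q lay on S5p regions, at a share slightly below that of all chromosomes. Overlap was counted from 1 bp. Of 598, 570 met an S5p region (95.3%, 93.3 to 96.9), against 97.3% on 1p (95.8 to 98.3) and 97.6% over all chromosomes. An S2p region was met by 482 (80.6%, 77.2 to 83.7), against 79.2% on 1p and 78.9% over all chromosomes. By class, 480 lay on both Pol II forms, 90 on S5p alone, 2 on S2p alone and 26 on neither. Those on neither were 4.35% on 1q (2.86 to 6.31), 2.44% on 1p (1.43 to 3.88) and 2.12% over all chromosomes. Those on S5p alone were 15.1%, 18.4% and 19.0%, and those on both 80.3%, 78.9% and 78.6%. The median 53BP1 fold was 6.49 on both, 4.76 on S5p alone and 3.71 on neither, and the median widths were 698, 439 and 263.5 bp. On 1p the folds were 6.42, 4.81 and 4.10.

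The 53BP1 summit lay close to the Pol II summit on both arms. In the 566 pairs on 1q the median distance from a 53BP1 to an S5p summit was 71.5 bp (55 to 82), and on 1p it was 71 bp (65 to 85). To the S2p summit it was 167 bp on 1q (132 to 210, 473 pairs) and 173 bp on 1p (141 to 205). S5p regions of 1q that held 53BP1 held more than 1 such region in 65 of 457 cases (14.2%, 11.2 to 17.8), against 13.5% on 1p, and the most was 7 on each arm.

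Counted from Pol II, the share of regions with 53BP1 was slightly higher on 1q than on 1p. Of the S5p regions, 457 of 2603 held 53BP1 (17.6%, 16.1 to 19.1), against 15.4% on 1p (14.2 to 16.6) and 15.2% over all chromosomes. Of the S2p regions, 383 of 2200 did (17.4%, 15.8 to 19.1), against 14.2% on 1p (13.0 to 15.4) and 13.9% over all chromosomes. The Pol II forms met each other at shares near the background. S2p was met by 1580 of 2603 S5p regions (60.7%, against 61.3% on 1p and 60.2% over all chromosomes), and S5p by 1269 of 2200 S2p regions (57.7%, against 56.2% and 54.9%).

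At equal rank by fold the arms separated further. In the strongest S5p quintile, 419 of 485 regions of 1q held 53BP1 (86.4%, 83.0 to 89.3). On 1p 533 of 739 did (72.1%, 68.7 to 75.3), and over all chromosomes 71.4%. The share on 1q was the highest of the 24 units, followed by chromosome 8 with 78.4% (74.2 to 82.3) and chromosome 5 with 76.0% (72.2 to 79.5). In the fourth quintile it was 29 of 354 (8.19%, 5.55 to 11.6) on 1q and 3.46% (2.29 to 5.00) on 1p, beside 3.57% on the other chromosomes. In the third, second and weakest quintiles 5 of 338, 1 of 481 and 3 of 945 regions of 1q held 53BP1. These shares were 1.48%, 0.208% and 0.317%, against 0.418%, 0.137% and 0% on 1p and 0.516%, 0.195% and 0.138% on the other chromosomes.

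This difference depended on how S5p regions were ranked. Ranked by −log10 q-value, 440 of 584 regions of the strongest quintile held 53BP1 on 1q (75.3%, 71.6 to 78.8) and 73.8% on 1p (70.4 to 76.9). Ranked by ChIP level over background, the shares were 88.1% and 72.1%. Under the ranking by fold, the median background in the strongest quintile was 11.2 fragments on 1q and 5.27 on 1p. In the weakest quintile, where few regions held 53BP1, it was 10.0 and 6. The part of the background in the difference in share was not tested.

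**Figure D5:**
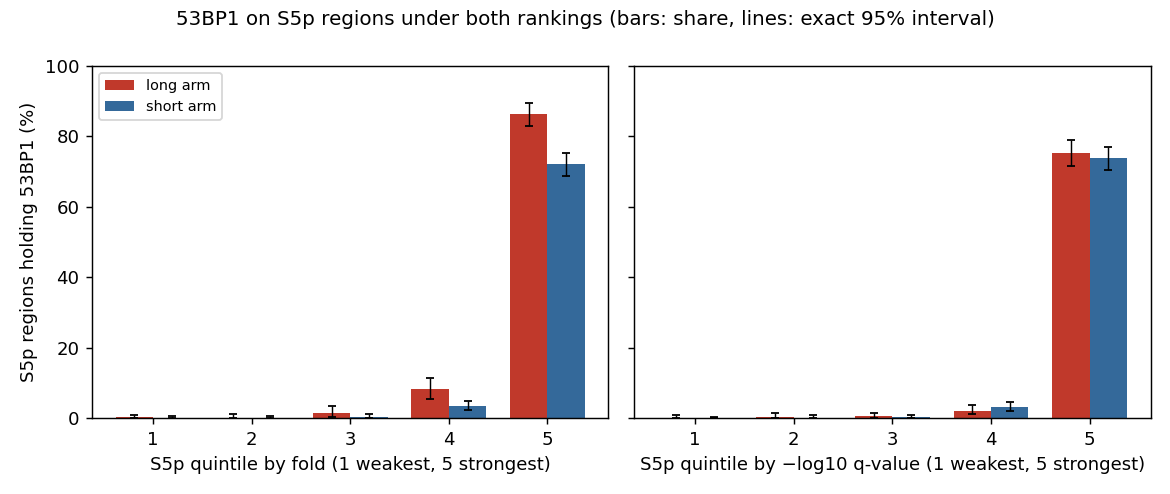
Percentage of S5p regions holding 53BP1 on 1q and 1p in each S5p quintile of the whole list, ranked by fold (left) or by −log10 q-value (right); lines are exact 95% intervals. In the strongest quintile the shares were 86.4% and 72.1% by fold, and 75.3% and 73.8% by −log10 q-value.

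For S2p the arms differed by fold in the middle quintiles, and at the ends of the list their intervals overlapped. Ranked by fold, 53BP1 was held by 3.19% of 1q regions in the weakest quintile (2.08 to 4.68) and 2.99% of 1p regions (1.81 to 4.63), and by 9.84% (7.02 to 13.3) and 3.12% (1.94 to 4.73) in the second. In the third the shares were 18.7% (14.8 to 23.2) and 9.12% (7.0 to 11.6), beside 7.42% on the other chromosomes. In the fourth they were 29.6% (24.4 to 35.2) and 17.2% (14.4 to 20.4), beside 17.3%. In the strongest they were 42.2% (37.3 to 47.2) and 38.7% (34.9 to 42.6), beside 36.3%. Ranked by −log10 q-value, the shares were 6.94% on 1q and 6.73% on 1p in the third quintile, 19.6% and 21.2% in the fourth and 43.5% and 40.2% in the strongest, and the intervals of the arms overlapped.

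Along the arm, the share of strong S5p regions with 53BP1 varied between 10 Mb windows. It was 24 of 25 at 240000001 to 250000000 (96%), 31 of 33 at 230000001 to 240000000 (93.9%) and 30 of 32 before 150000000 (93.8%). It was lowest at 200000001 to 210000000 with 60 of 79 (75.9%). Over S5p regions of every strength, the share was 37.9% before 150000000, 23.8% in the next window and lowest, 11.1%, at 190000001 to 200000000. The window from 150000001 to 160000000 also had the highest share of 53BP1 regions on S2p, 135 of 149 (90.6%), and 210000001 to 220000000 the lowest, 23 of 34 (67.6%).

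The 10 strongest 53BP1 regions of 1q were 851 to 2485 bp wide, and 6 of the 10 lay before 150000000. Their median width was 1140.5 bp, beside 644 bp for all 53BP1 regions of the arm. The strongest spanned 149222457 to 149224941, with a fold of 115 and a ChIP level of 1774 fragments over a background of 14.5. It lay on an S5p region with a fold of 206, with a background of 42.2 fragments beside the 1q median of 10.0. It was followed by 147735356 to 147736555, with a fold of 113 and a background of 2.78, below the 1q median. The region from 210546056 to 210547903 (fold 79.8) was the strongest beyond 150000000. The regions starting at 149513258 (fold 58.1) and 149605490 (fold 55.1) were the 2 of 1q at the 53BP1 background floor. Each of the 10 lay on both Pol II forms, with S5p percentiles no lower than 99.4 and S2p percentiles no lower than 89.3.

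Strong S5p regions of 1q ranged from compact to very wide. Of the 10 strongest, those starting at 146555283, 149222765, 149513388, 149605204 and 210546542 were 1363 to 2609 bp wide, with S2p folds of 11.4 to 20.3. The strongest, 181055969 to 181070996, had a fold of 215, a width of 15028 bp and an S2p fold of 38.5. The region from 150523849 to 150553674 was 29826 bp wide with a fold of 166, and it held 3 53BP1 regions. All 10 held 53BP1 and met S2p.

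None of the 10 strongest S2p regions lay before 150000000, and they were wide, with a median of 26086 bp. The strongest, 173810364 to 173838812, had an S2p fold of 209 and met 3 S5p regions and 5 53BP1 regions, the strongest of which had a fold of 42.0. The next, 209600480 to 209609829 (fold 165), coincided with an S5p region of fold 160 and with the widest 53BP1 region of the arm, 8457 bp with a fold of 26.7. The strength of 53BP1 varied among these wide regions. At 201337088 to 201361888 the S2p fold was 75.7 and the strongest of its 2 53BP1 regions had a fold of 5.23, at percentile 37.4 of its list.

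The widest Pol II regions of 1q were long domains in both lists. The widest S5p region, 183154346 to 183233997 (79652 bp, fold 94.2), coincided with the widest S2p region, 84340 bp with a fold of 43.2, and held 1 53BP1 region of fold 8.52. The S2p region from 208191441 to 208250027 (58587 bp, fold 13.1) met 21 separate S5p regions and no 53BP1 region. That from 205664415 to 205716975 (52561 bp, fold 11.9) met 11 S5p regions and likewise no 53BP1.

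The 66 S5p regions of the strongest quintile on 1q without 53BP1 were the weaker ones of that quintile. Their median fold was 11.3, against 30.01 for the 419 with 53BP1, and their median background was 10.3 against 11.2 fragments. S2p was met by 37 of them (56.1%) and by 373 of those with 53BP1 (89.0%). The strongest without 53BP1, 208411315 to 208418111, had an S5p fold of 29.3 and an S2p fold of 3.31. The next, 156208632 to 156229512, had an S5p fold of 25.7 and met a 41836 bp S2p region of fold 58.1.

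53BP1 regions of 1q without S5p were few and narrow. The strongest, 151682666 to 151683226, had a fold of 8.64 from 25 fragments over a background of 2.01, and it met no S2p region. The next, 201012233 to 201012639, had a fold of 7.62. S2p regions without S5p were led by 225667373 to 225679383, 12011 bp wide with a fold of 11.4. None of the 5 strongest held 53BP1, an absence that was likely in any case. Only 2 of the 598 53BP1 regions of 1q lay on S2p alone (0.334%, against 0.319% over all chromosomes). On 1p the strongest 53BP1 and S5p regions, from 28974744 (fold 104.0) and 28973761 (fold 259), overlapped each other, with backgrounds of 2.32 and 5.76 fragments.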

How the data were processed

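ChIP-seq libraries of 53BP1, Pol II S5p and Pol II S2p, 1 each, were used, in the form of 1 deposited region list per ChIP. Per the submitters' processing notes, the build was hg19 and bcl2fastq 2.20.0.422 was used. How reads were aligned, and with which caller and control regions were called, is not given in the sources used here. Each deposited region has a fold (a ratio over background), a −log10 p-value, a −log10 q-value, a score and a summit offset. The deposited score equals 10 times the −log10 q-value within 1. Total read depth is unknown, and the recovered fragments at each summit give the local depth.

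Rows on other sequences than chromosomes 1 to 22 and X (1, 2 and 1) were left out. Positions are 1-based. No hg19 annotation or sequence was used, so no gene is named. ChIP level and background were solved from fold and p-value under a Poisson law, and the solver and the overlap counts were tested on simulated data. Shares have Clopper-Pearson intervals and medians have order-statistic intervals. Regions named on 1q are the 10 of largest fold and the 5 widest of each list, the 5 strongest of each class without overlap, the 5 most crowded windows and the 5 longest gaps, in full or by their leading members. On 1p only the strongest region of each list is named. The members, lists and comparisons were chosen with earlier results of these data known. The recovery of the background, the ranking by ChIP level over background, the other rankings of S2p and of the weakest quintile, the slices of equal fold and the 2 sides of the centromere were chosen after seeing the data. Alternatives were limits on q-value and fold, other arm limits, overlap definitions, rankings, bins and windows. Software was Python 3.11.15 with scipy 1.17.1, pandas 2.3.3, matplotlib 3.10.9 and numpy 2.4.6.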

Additional observations from a re-analysis of the deposited data

How the results depend on the processing

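For 32 results, 120 alternative values were computed in all, of which 65 lay within the interval of the reported value (counts within 1.5 times) and 55 did not. Densities, overlap classes and single regions were not recomputed. The cause was not tested beyond what an alternative itself removes (fewer regions, shorter windows). No paired analysis was possible because only 1 library was made per ChIP. With a −log10 q-value of at least 5, 53BP1, S5p and S2p regions of 1q numbered 463, 1639 and 1363 (1p: 494, 2130 and 1711). Median widths on 1q were then 719, 1504 and 2156 bp (1p: 633, 1632 and 2368 bp), so that the order of the arms turned for S2p width. The order also turned for the 53BP1 fold rank (48.95 on 1q, 50.4 on 1p), within its interval. Under that limit 98.7% of 53BP1 regions lay on S5p and 84.7% on S2p. Of S5p regions 24.3% held 53BP1 (95.3% in the strongest quintile, 82.7% on 1p), 57.5% of S5p regions met S2p and 61.3% of S2p regions met S5p. The p-value rank at equal fold was then 92.3 for S5p and 92.8 for S2p, the S2p fold rank 29.7, the S2p background ratio of 1q to 1p 2.08, and the summit distances 46.5 bp to S5p and 129.5 bp to S2p. In the upper 50% by fold, 99.3% of 53BP1 regions lay on S5p, 28.8% of S5p regions held 53BP1 (16.8% on 1p; 81.3% in the strongest quintile of 1q), 53.2% of S5p met S2p, 62.4% of S2p met S5p, and the S5p background ratio was 2.05. Without the strongest 1% of each list, 87.9% of 53BP1 regions lay on S5p and 72.3% on S2p. On 1p these shares fell likewise, to 87.8% and 67.9%, and the order of the arms turned for S5p. With 50% of the region covered, 2.57% of S5p regions held 53BP1 (11.5% in the strongest quintile, 4.47% on 1p), 51.7% of S5p met S2p and 45.6% of S2p met S5p. With 250 bp windows around summits, 69.6% and 45.8% of 53BP1 regions lay on S5p and S2p, 16.0% of S5p regions held 53BP1 (79.0% in the strongest quintile, 63.6% on 1p), 24.0% of S5p met S2p and 28.5% of S2p met S5p. Ranking by −log10 q-value gave 75.3% with 53BP1 in the strongest S5p quintile and median ranks of 67.9, 54.2 and 58.8 for 53BP1, S5p and S2p, so that for Pol II the order of the arms turned (1p: 51.0 and 49.4). It also gave 17.4%, 16.7% and 16.9% of 1q regions in the weakest quintile, where the order turned in all 3 lists, and 53BP1 on 6.94% and 19.6% of S2p regions of quintiles 3 and 4, where the order turned in quintile 4. Ranking by ChIP level over background, added after seeing the data, gave 39.1, 28.0 and 30.5, and for 53BP1 the order turned (1p: 50.0). It gave 35.5%, 41.0% and 40.05% in the weakest quintile, and 23.5% of S2p regions of quintile 3 with 53BP1. Of the 120 values, 17 turned the order of the arms, the rest in shares and distances whose reported values were close on both arms. With 20 fold bins the p-value rank was 94.5 for 53BP1 and 93.4 for S5p, and in 1 Mb windows with at least 20 regions its lowest value was 76.1 for 53BP1 and 76.3 for S5p. Sparser 1 Mb windows went lower, to 56.2 for 53BP1 (146000001 to 147000000, 6 regions), 49.9 for S5p (176000001 to 177000000, 6 regions) and 62.7 for S2p (the same window, 4 regions). Limiting 1q to starts from 150 Mb on, or keeping the stretch left out, moved none of the values by more than their intervals.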
